A study of Bos taurus with 8 samples.

Results

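UGP2, GMDS and ST6GALNAC2 are 3 of the 27607 genes counted in bovine blastocysts, and they are described here library by library. They were picked by identifier (ENSBTAG00000000111 for UGP2, ENSBTAG00000012058 for GMDS and ENSBTAG00000015255 for ST6GALNAC2) from the 52 metabolic genes that the study selected for a difference between its groups. Their contrast between the groups is therefore described and not tested.

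Total RNA was sequenced from 8 pools of about 5 blastocysts each, grown in vitro to day 7 from oocytes of Polish Holstein-Friesian heifers and fertilized with the semen of 1 bull. Donor age was under 10 months in the prepubertal group and over 15 months in the pubertal group, which served as controls. On ultrasound the pubertal donors carried a corpus luteum or a dominant follicle, and the prepubertal donors carried neither. Each library is a pool, so differences between single embryos cannot be seen, and the labels give the sex as female without saying whether donors or embryos are meant. The libraries are called P1 to P8 as labelled. The study's list of metabolic genes groups P1, P2, P3 and P8 as prepubertal and P4, P5, P6 and P7 as pubertal, which is called the study grouping below. The sample labels instead make P4 prepubertal and P8 pubertal, which is called the label grouping. Both are given, because the files do not show which is right, and P1, P2 and P3 against P5, P6 and P7 is the comparison on which they do not differ.

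Sugar nucleotides are the activated sugars from which cells build glycogen and the glycans of glycoproteins, glycolipids and proteoglycans. UGP2 (UDP-glucose pyrophosphorylase) makes UDP-glucose from glucose 1-phosphate and UTP, and UDP-glucose feeds glycogen synthesis and the supply of UDP-galactose and UDP-glucuronate. GMDS (GDP-mannose 4,6-dehydratase) takes the first step from GDP-mannose to GDP-fucose, the donor for fucosylation. ST6GALNAC2 is a Golgi sialyltransferase that adds sialic acid to the N-acetylgalactosamine of O-linked glycans. At the blastocyst stage such glycans lie on the outer surface of the trophectoderm, the cell layer that later meets the uterus.

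The reads counted on genes ranged from 18510164 in P7 to 29549143 in P4. P3 and P7 stood apart from the other libraries. Of their uniquely mapped reads, 45.4% and 52.1% fell on genes, against 57.9% to 63.6% in the other 6, and they had reads on 24203 and 24044 genes, against 19503 to 20885. The share of uniquely mapped reads on genes averaged 55.9% ± 7.03 for prepubertal and 60.2% ± 5.5 for pubertal libraries of the study grouping (SD, n = 4 each). A two-sided exact permutation test gave p = 0.429, where the smallest p that 4 against 4 allows is 0.0286. The levels, fold changes and ratios of the 3 genes are also given without P3 and P7.

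UGP2 was higher in the pubertal group of the study grouping. Levels are given in counts per 1000000 gene counts (CPM), which are not corrected for gene length, so the levels of the 3 genes are not compared with each other. UGP2 had 2065 to 3594 reads per library. In CPM it stood at 92.0 in P1, 106.9 in P2, 102.7 in P3 and 106.2 in P8, and at 121.6 in P4, 110.3 in P5, 113.2 in P6 and 122.5 in P7. Under the study grouping the lowest pubertal library lay above the highest prepubertal one. Prepubertal libraries averaged 101.9 ± 6.91 CPM and pubertal libraries 116.9 ± 6.06 CPM (SD, n = 4 each), and the second mean was 1.15-fold the first. Of the 15513 genes that passed the filter on low counts (all genes tested), 2.35% lay higher in this way without overlap. Without P3 and P7 the means were 101.7 and 115.1 CPM without overlap, and at 3 against 3 libraries 11.8% of all genes did not overlap in either direction. Its coefficient of variation was 6.78% in the prepubertal and 5.18% in the pubertal group, where counting error alone gives 2.04% and 1.82%. Its within-group SD of 0.09 on the log2(CPM + 1) scale compared with a median of 0.14 over 1255 genes with a like number of CPM, and so of like counting error. For GMDS and ST6GALNAC2 the order was the opposite, with 0.20 against 0.18 over 2253 genes and 0.24 against 0.18 over 2264 genes. The study chose its genes by adjusted p and fold change. Adjusted p depends on this spread, so these comparisons are partly fixed by the choice.

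GMDS was the gene with the lower level in the pubertal group. Its level was 30.2 CPM in P1, 25.7 in P2, 33.2 in P3 and 34.2 in P8, and it was 25.8 CPM in P4, 17.9 in P5, 19.5 in P6 and 22.9 in P7. The groups of the study grouping touched at P2 and P4, whose 622 and 762 reads gave levels that differed by less than their counting errors of 4.01% and 3.62%. After scaling with edgeR's TMM factors, P2 (25.7 CPM) lay just above P4 (25.5 CPM) and the groups no longer overlapped. Prepubertal libraries averaged 30.8 ± 3.79 CPM and pubertal libraries 21.5 ± 3.5 CPM (SD, n = 4 each), and the second mean was 0.698 times the first. Without P4 and P8, the libraries in conflict, GMDS ran from 25.7 to 33.2 CPM in P1, P2 and P3 and from 17.9 to 22.9 CPM in P5, P6 and P7, with no overlap, where 16.8% of all genes did not overlap. Without P3 and P7 the pubertal mean was 0.702 times the prepubertal one, and P2 and P4 still touched.

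ST6GALNAC2 lay on the same side of the contrast as UGP2. It had 18.7 CPM in P1, 22.7 in P2, 27.4 in P3 and 20.8 in P8, and 29.7 CPM in P4, 28.6 in P5, 27.3 in P6 and 40.5 in P7. Prepubertal libraries averaged 22.4 ± 3.73 CPM and pubertal libraries 31.5 ± 6.07 CPM (SD, n = 4 each), and the second mean was 1.41-fold the first. P3 lay just above P6, so the groups overlapped by these 2 libraries. With TMM scaling P3 had 26.2 and P6 27.6 CPM, and the groups did not overlap.

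**Figure D1:**
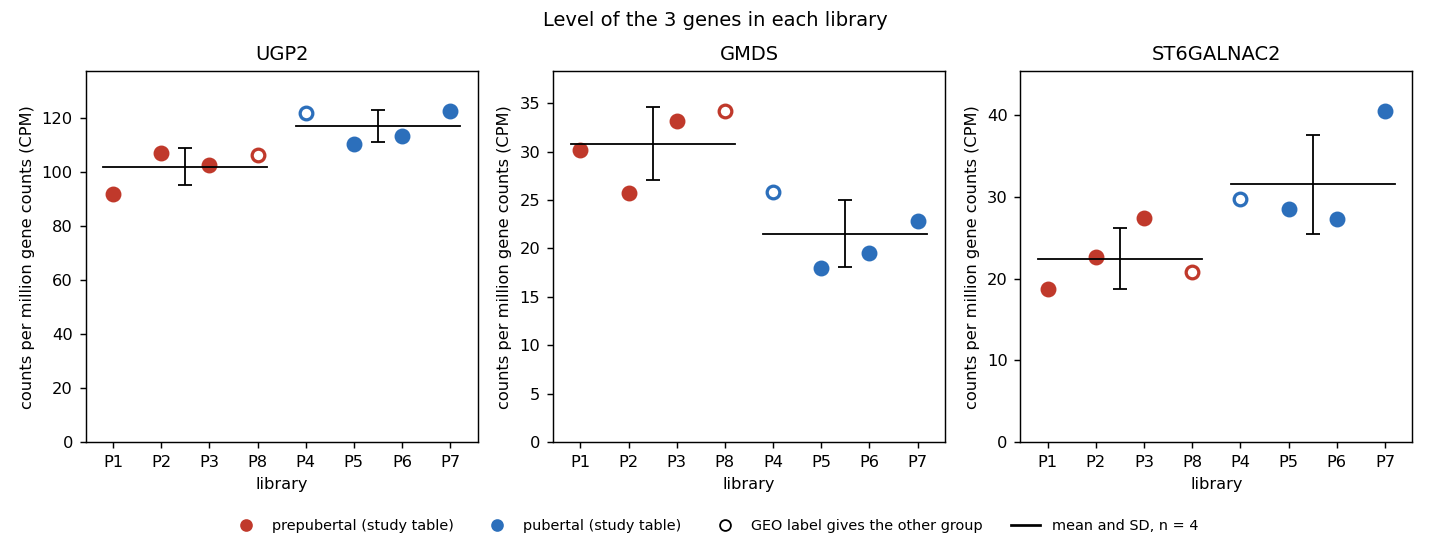
Counts per 1000000 gene counts (CPM) of UGP2, GMDS and ST6GALNAC2 in each of the 8 libraries, coloured by the study grouping, with open circles for P4 and P8, whose sample labels give the other group, and lines and bars for the mean and SD of 4 libraries. The UGP2 groups are separate, GMDS touches at P2 and P4 (25.7 and 25.8 CPM), and ST6GALNAC2 overlaps at P3 and P6 (27.4 and 27.3 CPM) with P7 highest at 40.5 CPM.

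The highest ST6GALNAC2 level of each group was in P3 and P7, the libraries with the smallest share of reads on genes. Without them ST6GALNAC2 averaged 20.7 ± 2.0 CPM in P1, P2 and P8 and 28.5 ± 1.23 CPM in P4, P5 and P6 (SD, n = 3 each), and the groups did not overlap, as for 11.8% of all genes. Its coefficient of variation was 16.7% in the prepubertal and 19.3% in the pubertal group with all 8 libraries, and 9.63% and 4.29% without P3 and P7. Since these held the highest level of each group, leaving them out narrows the ranges by construction. The overlap likewise goes by construction, as P3 was the only prepubertal library in it. Counted per 1000000 uniquely mapped reads, genic or not, the coefficient of variation with all 8 libraries was 6.79% and 9.47%. The spread of the other two genes was larger on that scale than in CPM, at 13.9% and 7.93% for UGP2, against 6.78% and 5.18%, and at 15.9% and 18.0% for GMDS, against 12.3% and 16.3%. On that scale ST6GALNAC2 ran from 11.2 to 13.1 in the prepubertal libraries and from 16.9 to 21.1 in the pubertal ones, a 1.52-fold difference of the means with no overlap, where 3.62% of all genes did not overlap. UGP2 and GMDS overlapped on that scale. UGP2 in P8 had 64.1 reads and in P7 63.8, and GMDS in P4 had 16.4 and in P2 14.9. The part that read assignment plays in these levels was not tested.

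**Figure D2:**
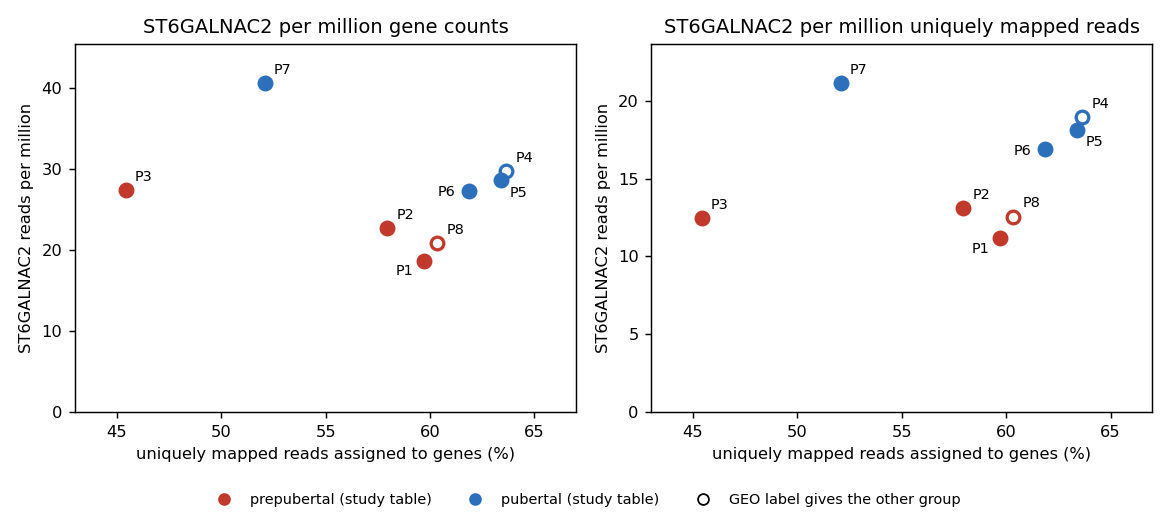
ST6GALNAC2 against the percentage of uniquely mapped reads that were assigned to genes, per 1000000 gene counts (left) and per 1000000 uniquely mapped reads (right), one point per library, coloured by the study grouping, with open circles where the sample label gives the other group. P3 and P7, at 45.4% and 52.1%, had the highest level of their group on the left, and on the right P3 (12.5) lay among the other prepubertal libraries while P7 (21.1) was still the highest pubertal one.

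Fold changes were then fitted with edgeR with TMM scaling over the 15513 genes left by its filter on low counts. The log2 fold change, pubertal over prepubertal, was 0.24 for UGP2 (standard error 0.08), -0.48 for GMDS (standard error 0.13) and 0.53 for ST6GALNAC2 (standard error 0.15). Of all genes tested, 12.9% had a higher log2 fold change than UGP2, 2.89% a higher one than ST6GALNAC2 and 14.0% a lower one than GMDS, and the median over all was -0.02. Without P3 and P7 the log2 fold changes were 0.22, -0.48 and 0.50. A gene was called where its Benjamini-Hochberg adjusted p was under 0.05 with a change of more than 1.2-fold. By edgeR's quasi-likelihood test 0 genes were called (0%), with 1681 (10.8%) at an unadjusted p under 0.05. DESeq2 called 128 of 13933 genes (0.919%), and 0 of the 3 were among them. The study used DESeq2 with the same limits and lists all 3, so its calls of these genes were not reproduced here. By DESeq2, 0 of the 3 had an adjusted p under 0.05, and UGP2, at 1.19-fold, also fell short of the fold limit. The cause of this difference from the study was not tested. Genes whose groups did not overlap made up 5.29% of all tested in CPM, where 1 of the 3 (UGP2) was among them, and 5.44% with TMM scaling, where all 3 were. These counts are background only, since the 3 genes were chosen on this contrast. In pooled embryos, fewer cells that express a gene and less of its RNA per cell cannot be told apart.

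The label grouping gave the same directions with smaller differences. The log2 fold changes were 0.13 for UGP2 (standard error 0.10), -0.26 for GMDS (standard error 0.18) and 0.28 for ST6GALNAC2 (standard error 0.20), with 0 of 15513 genes called by edgeR (0%) and 1134 (7.31%) at an unadjusted p under 0.05. The groups overlapped for all 3 genes in CPM, where 3.67% of all genes did not overlap. The genes were chosen under the study grouping, so smaller differences under the other one say nothing of which is right. With the 6 libraries not in conflict, edgeR gave 0.25 for UGP2, -0.51 for GMDS and 0.54 for ST6GALNAC2 (standard errors 0.11, 0.14 and 0.17). In CPM, UGP2 and GMDS did not overlap between these 6 and ST6GALNAC2 did, with 16.8% of all genes not overlapping. These comparisons share 6 libraries, so they are not independent of each other.

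**Figure D3:**
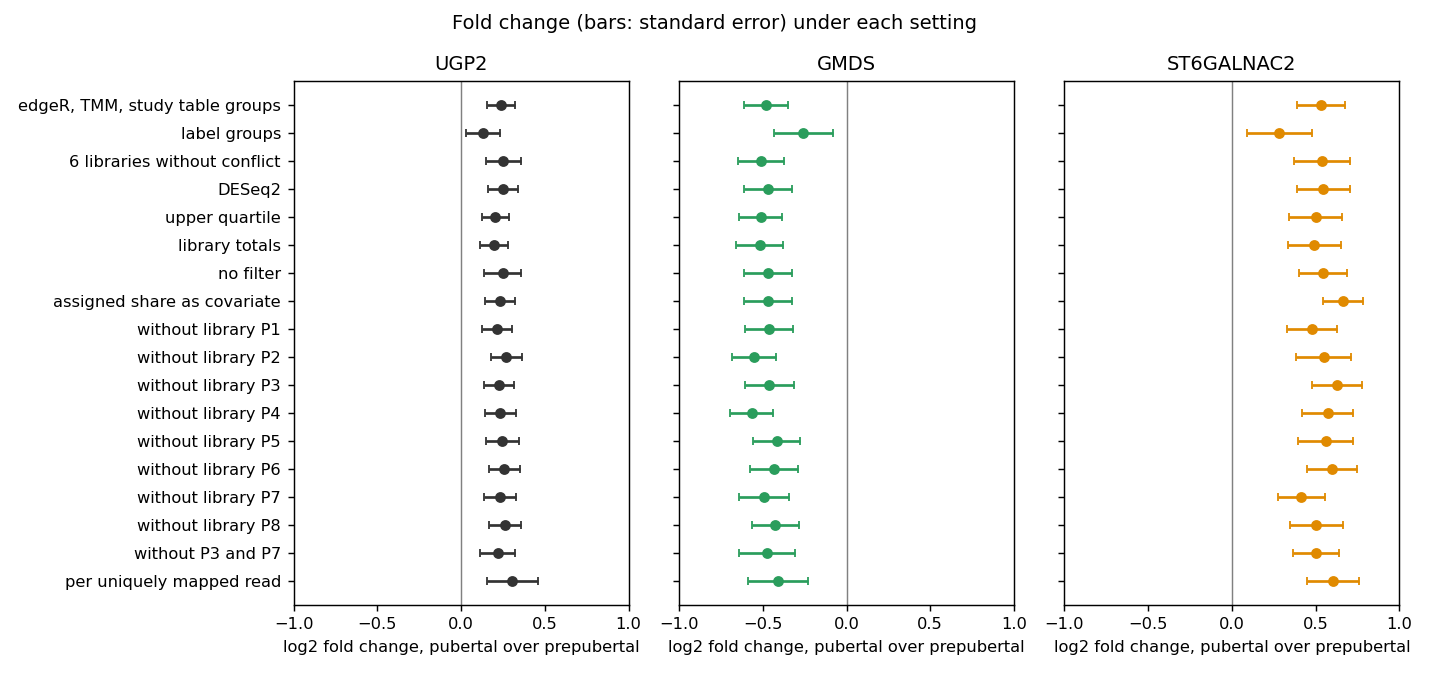
Log2 fold change of the pubertal over the prepubertal group for each gene, with its standard error, under the edgeR fit with TMM and the study grouping (top) and 17 other settings named at the left. All points keep their side of 0, and the label grouping lies nearest to 0 for each gene (0.13, -0.26 and 0.28).

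Because the library total cancels, the ratio of the reads of 2 genes within a library does not depend on the scaling between libraries. The ratio of ST6GALNAC2 to GMDS reads was 0.619 in P1, 0.881 in P2, 0.828 in P3 and 0.609 in P8, and it was 1.15 in P4, 1.59 in P5, 1.40 in P6 and 1.77 in P7. Every pubertal library of the study grouping had a higher ratio than every prepubertal one. GMDS was chosen on this contrast with the direction opposite to UGP2 and ST6GALNAC2, so separation of a ratio to GMDS is a description only. The share of other gene pairs that separate in this way was not computed. A ratio of 1 has no meaning of its own, since the lengths of the genes enter it. The mean ratio was 0.734 ± 0.141 and 1.48 ± 0.266 (SD, n = 4 each), so that the second was 2.02 times the first. Without P3 and P7 it was 1.97 times as high.

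The ratio of UGP2 to GMDS was 3.04 in P1, 4.15 in P2, 3.10 in P3 and 3.11 in P8, and 4.72 in P4, 6.15 in P5, 5.80 in P6 and 5.36 in P7. P2 stood above the other prepubertal libraries, which lay between 3.04 and 3.11, and below every pubertal one. Prepubertal libraries averaged 3.35 ± 0.537 and pubertal libraries 5.51 ± 0.618 (SD, n = 4 each), a 1.64-fold difference, and without P3 and P7 the difference was 1.62-fold. UGP2 and ST6GALNAC2, which lay on the same side of the contrast, differed less between the groups relative to each other. The ratio of ST6GALNAC2 to UGP2 was 0.220 ± 0.032 and 0.269 ± 0.042 (SD, n = 4 each), and the groups overlapped through P3 at 0.267. Its log2 difference of 0.29 fell to 0.19 without P7 and rose to 0.39 without P3. Without P3 and P7 the ratio ran from 0.196 to 0.212 in the prepubertal and from 0.241 to 0.259 in the pubertal libraries. P3 (0.267) and P7 (0.331) held the highest ratio of their group, so this separation follows from leaving out P3. The share of other gene pairs that separate in this way was not computed here either.

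Under the label grouping all 3 ratios overlapped between the groups. That of ST6GALNAC2 to UGP2 averaged 0.232 ± 0.030 and 0.257 ± 0.056 (SD, n = 4 each). This was a 1.11-fold difference, against 1.22-fold under the study grouping. The ratio of ST6GALNAC2 to GMDS then averaged 0.870 ± 0.220 and 1.34 ± 0.513 (SD, n = 4 each), a 1.54-fold difference, and that of UGP2 to GMDS 3.75 ± 0.821 and 5.10 ± 1.37 (SD, n = 4 in each).

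**Figure D4:**
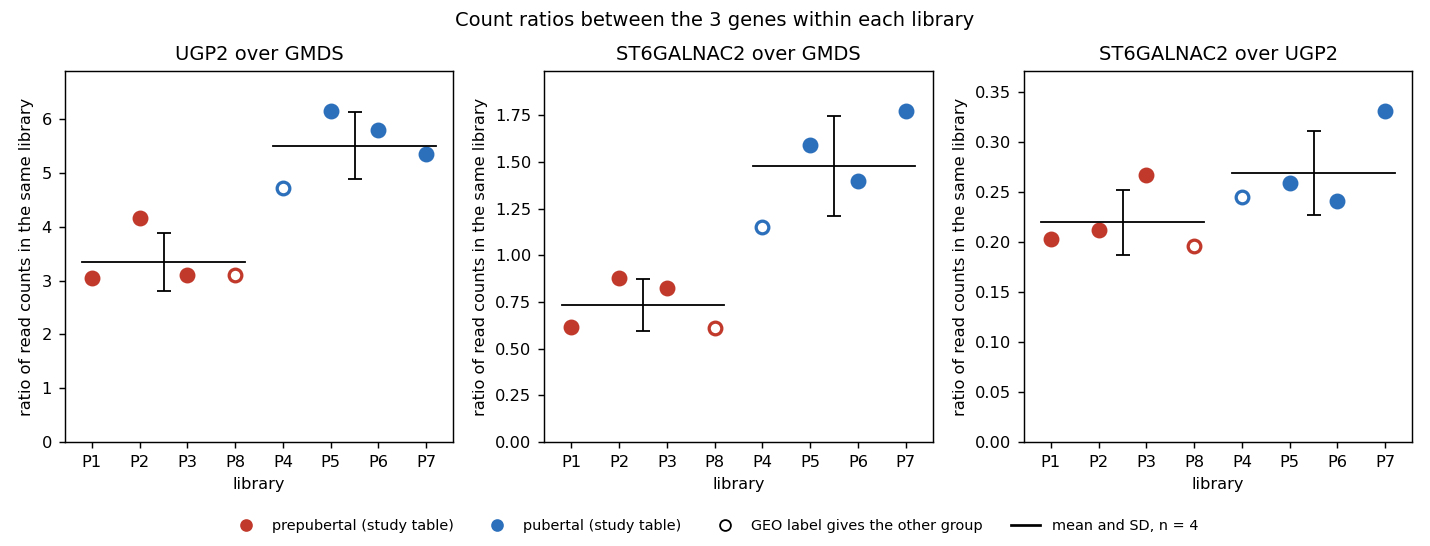
Ratios of read counts between 2 of the 3 genes within each library, coloured by the study grouping, with open circles where the sample label gives the other group, and lines and bars for the mean and SD of 4 libraries. ST6GALNAC2 over GMDS is at most 0.881 in P1, P2, P3 and P8 and at least 1.15 in P4 to P7, and ST6GALNAC2 over UGP2 overlaps through P3.

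Since the choice of the genes fixes how they lie between the groups, joint variation was described within them, as the deviation of each library's log2(CPM + 1) from its group mean. UGP2 deviated least, from -0.14 in P1 to 0.07 in P2. ST6GALNAC2 ranged from -0.24 in P1 to 0.37 in P7, and GMDS from -0.24 in P2 to 0.26 in P4. In P3 and P7 all 3 genes were above their group mean, and in P1, P5 and P6 all 3 were below it. P4 had the highest GMDS of the pubertal libraries (0.26) with ST6GALNAC2 below the mean (-0.06), and in P2 GMDS was low (-0.24) while UGP2 and ST6GALNAC2 were above (0.07 and 0.03). UGP2 and GMDS deviated to the same side in 7 of 8 libraries, UGP2 and ST6GALNAC2 in 6 and GMDS and ST6GALNAC2 in 5. With TMM scaling each pair did so in 4 of 8, so the joint variation within groups depended on the scaling. Pearson's r of the deviations was 0.40 for UGP2 and GMDS, 0.59 for UGP2 and ST6GALNAC2 and 0.30 for GMDS and ST6GALNAC2 in CPM, and -0.14, 0.29 and 0.03 with TMM scaling (8 libraries, as a description).

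**Figure D5:**
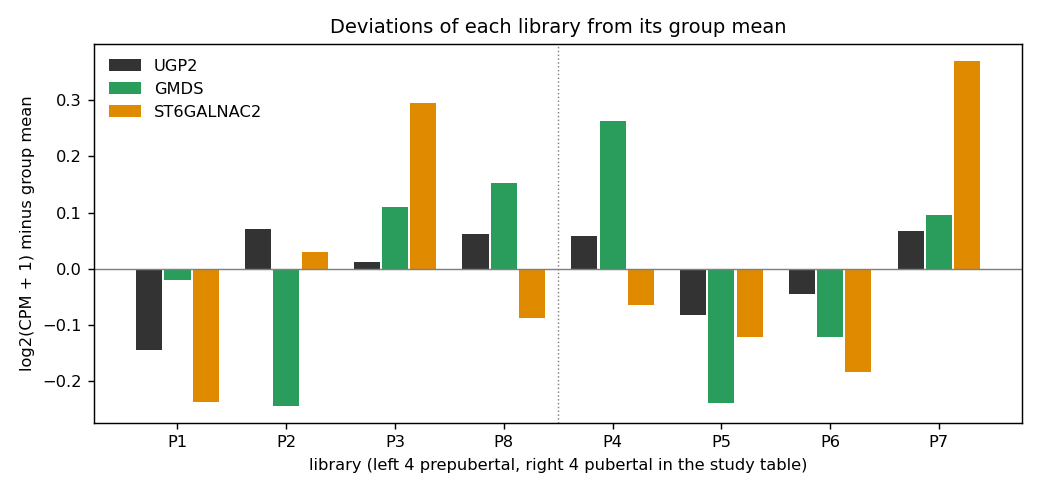
Deviation of log2(CPM + 1) from the mean of the library's group (study grouping) for the 3 genes in each library. All 3 bars are above 0 in P3 and P7 and below 0 in P1, P5 and P6, while GMDS stands opposite to ST6GALNAC2 in P2, P4 and P8.

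The same deviations were compared with those of the other 51 metabolic genes that the study pairs with symbols, as Pearson's r over 8 libraries, given as a description. All r values rest on the same 8 libraries, and within a library all genes share 1 scaling. The median r with all other tested genes was 0.19 for UGP2, 0.20 for GMDS and 0.17 for ST6GALNAC2 in CPM, and at most 0.01 with TMM scaling. For GMDS the nearest genes were IDH2, the mitochondrial NADP-dependent isocitrate dehydrogenase (r = 0.92), and RDH12, a retinal reductase (r = 0.91), and the most opposed was GCSH, a protein of the glycine cleavage system (r = -0.90). With TMM scaling these values were 0.90, 0.87 and -0.81. UGP2 was nearest to ACP5, an acid phosphatase (r = 0.91, and 0.74 with TMM scaling), and DGUOK, a mitochondrial deoxyguanosine kinase (r = 0.88 and 0.64), and most opposed to ATP5PD, a subunit of ATP synthase (r = -0.89 and -0.50). ST6GALNAC2 was nearest to ANPEP, a membrane aminopeptidase (r = 0.84 and 0.75), and ATP12A, a proton pump (r = 0.78 and 0.70), and most opposed to ETNPPL, a phosphoethanolamine lyase (r = -0.90 and -0.84). Of 15512 genes, 228 had r above 0.9 with UGP2, 129 with GMDS and 155 with ST6GALNAC2 in CPM, and 79, 64 and 94 with TMM scaling. The nearest of all, a gene with no symbol paired, had r = 0.99 for each in CPM, and 0.83, 0.99 and 0.88 with TMM scaling.

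A list of 8 other genes of glycan and carbohydrate metabolism was taken from the same 52 genes. All were chosen by the study on this contrast, so their counts are not independent evidence. By edgeR, 3 of the 8 had a positive and 5 a negative log2 fold change under the study grouping, with a median log2 fold change of -0.47, against 7362 higher and 8151 lower among all genes tested. Neither edgeR nor DESeq2 gave any of the 8 an adjusted p under 0.05, at whatever fold change (0 of 8). Of all genes, 0% and 0.919% were called, which also takes a change of more than 1.2-fold. The groups did not overlap in CPM for 4 of the 8, all lower in the pubertal group, where 2.93% of all genes lay so. Under the label grouping the groups overlapped for each of the 8 (0 of 8 without overlap).

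MGAT4B, which adds a branch to N-linked glycans, was the other glycan-building enzyme of the list. Its prepubertal libraries averaged 54.2 ± 4.82 CPM and its pubertal ones 68.1 ± 8.19 CPM (SD, n = 4 each), with overlap, and edgeR gave it 0.36 on the log2 scale (standard error 0.11). ARSB, a lysosomal sulfatase that degrades dermatan and chondroitin sulfate, averaged 15.7 ± 5.27 and 8.98 ± 0.906 CPM in the same order, or -0.76 on the log2 scale (standard error 0.22). Its pubertal libraries lay between 7.72 and 9.83 CPM and its prepubertal ones between 10.1 and 20.9 CPM. GULO, which catalyses the last step from glucuronate to ascorbate, a route that starts from UDP-glucose, averaged 12.9 ± 2.29 and 7.43 ± 2.03 CPM with overlap, or -0.76 on the log2 scale (standard error 0.20), opposite in sign to UGP2.

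Among the other genes of carbohydrate metabolism on the list, ENO1 and ALDOC of glycolysis and ISYNA1, which makes inositol phosphate from glucose 6-phosphate, were lower in the pubertal group without overlap in CPM, with log2 fold changes of -0.54, -0.47 and -0.48 (standard errors 0.15, 0.14 and 0.14). In ENO1 the margin was narrow, at 228.3 CPM in P1 and 227.1 CPM in P4. PGD of the pentose phosphate pathway (0.54, standard error 0.19) and PCK2, the mitochondrial phosphoenolpyruvate carboxykinase (1.0, standard error 0.31), were higher with overlap, and in both P6 was the highest library, at 409.5 and 54.3 CPM. All 8 genes kept their direction with the label grouping, where the log2 fold changes were 0.18 for MGAT4B, -0.58 for both ARSB and GULO, -0.52 for ENO1, -0.19 for ALDOC, -0.42 for ISYNA1, 0.46 for PGD and 0.73 for PCK2. ALDOC moved most in proportion, from -0.47.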

How the data were processed

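The authors trimmed the reads with Flexbar (after FastQC), mapped them with STAR to Bos taurus UCD1.2 and counted them per gene of Ensembl annotation 105 with HTSeq-count. The deposited values are raw counts, 1 file per library, without normalization. Reads outside genes (35.8% to 54.1% of uniquely mapped reads), ambiguous reads (0.448% to 0.581%) and multi-mapped reads are summary rows and not genes. They entered no gene test and no library size, except that reads outside genes and ambiguous reads are part of the uniquely mapped total behind the share of reads on genes and the scaling to uniquely mapped reads. The submitters' processing notes also name RSEM and DESeq2. The library kit, a SMARTer Stranded Total RNA-Seq kit for low input, keeps the strand. The strand option of the counting, the tool versions and any use of molecular identifiers in counting are not stated in the paper or labels. Reads of near-identical or overlapping genes, and of antisense genes if strand was not used, are therefore uncertain, and counting errors cover counting only. No pair of libraries was alike within counting noise (lowest chi-square divided by its degrees of freedom 20.3), so none was taken as deposited again. That does not show that the pools are separate. Nothing shows whether pools share donors, so the spread may be partly technical.

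CPM is a gene's count per 1000000 gene counts. edgeR 4.0.16 (filterByExpr, TMM, glmQLFit, glmQLFTest, Benjamini-Hochberg adjustment, no covariate) was fitted over all genes in R 4.3.3, with DESeq2 1.42.0 as an alternative. Standard errors were derived from the fold change and its F value. The fits were also run on simulated counts, for which no values are given here. For library measures the test was an exact permutation test, two-sided (scipy 1.17.1). The main groups are those of the study's gene list, and the labels' groups and the 6 undisputed libraries were alternatives, with DESeq2, upper quartile and total scaling, no filter, the share of reads on genes as covariate and leaving out each library. Leaving out P3 and P7, and scaling to uniquely mapped reads, were added after seeing the data.

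The genes, lists and tests were chosen with earlier results of these data known. The genes named are the 3, the 8 listed genes, and for each of the 3 the 2 nearest and the most opposed of the 52 genes the study pairs with symbols, with the r of the nearest of all tested. In the files identifiers stand without symbols, and 0 of them were found in the RefSeq gene table of assembly ARS-UCD2.0, so names are the study's, and the planned wider list of sugar-nucleotide genes, markers of trophectoderm, other blastocyst lineages and cumulus cells, gene length and sequences were not used here. In that table ST6GALNAC2 is the symbol of 1 gene and a synonym of 1 other, ST6GALNAC4, so the name of ENSBTAG00000015255 rests on the study's list.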

Additional observations from a re-analysis of the deposited data

Results flagged for a closer look

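In groups of 4 libraries, a library was singled out where its gap to the nearest other was large relative to the whole range (Dixon's test). Over 40 groups examined, which share libraries between the 2 groupings, 6 were singled out, and chance alone singles out about 1 group in 20. The only value of the 3 genes among them was the ratio of UGP2 to GMDS in P2, 4.15 against 3.04 to 3.11 in the other prepubertal libraries of the study grouping. P3 was singled out by its gene counts (20112044), its share of uniquely mapped reads on genes (45.4%) and its number of genes with reads (24203), and P7 by its share of reads on genes (52.1%). P8 was singled out by its share of multi-mapped reads, 17.2% of all mapped reads. P8 is also one of the 2 libraries whose labels and study grouping differ.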

How the results depend on the processing

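The direction of all 3 genes was kept under all 17 other settings. With the label grouping the log2 fold changes moved by more than the spread between replicates, to 0.13 for UGP2, -0.26 for GMDS and 0.28 for ST6GALNAC2, and the log2 difference of the ratios to 0.42 for UGP2 to GMDS and 0.55 for ST6GALNAC2 to GMDS. With single libraries left out, the log2 fold changes ranged from 0.21 to 0.27 for UGP2, from -0.57 to -0.42 for GMDS and from 0.41 (without P7) to 0.63 (without P3) for ST6GALNAC2. The log2 differences of the ratios ranged from 0.67 to 0.83 for UGP2 to GMDS, from 0.92 to 1.13 for ST6GALNAC2 to GMDS and from 0.19 (without P7) to 0.39 (without P3) for ST6GALNAC2 to UGP2. With the share of reads on genes as covariate, ST6GALNAC2 had 0.66 (standard error 0.12).

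The number of genes called, 0 by edgeR with the study grouping, was 128 by DESeq2, 25 without the filter, 11 with the 6 undisputed libraries and 6 with scaling to uniquely mapped reads. Leaving out 1 library at a time gave 0 to 8 (8 without P4, 5 without P1, 4 without P8, 3 without P7), and the genes at an unadjusted p under 0.05 from 1113 (without P6) to 2301 (without P1). These were 1117 with the covariate and 1109 without P3 and P7. The cause was not tested. The r of deviations of UGP2 and GMDS (0.40) turned to -0.14 with TMM scaling, -0.39 with the label grouping's means and -0.51 with no group means removed. That of GMDS and ST6GALNAC2 (0.30) turned to 0.03, -0.41 and -0.51, and that of UGP2 and ST6GALNAC2 (0.59) to 0.29, 0.81 and 0.83. The last of these values, and in part those with the label grouping's means, hold the contrast on which the genes were chosen. With 423 to 879 reads per library, the counting error of GMDS and ST6GALNAC2 was 3.37% to 4.86% of their level. This takes every read as independent, so it is a lower bound if reads are copies made in library amplification.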
